A study of Mus musculus with 11 samples.

Results

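The miR-30 family was followed here through all of its guide and star arms in the livers of mice that overexpress PGC-1β. Its members were taken by name: every probe of the chip called miR-30 followed by a letter from a to e, which gave 10 of the 655 probes, 5 guide arms (mmu-miR-30a, mmu-miR-30b, mmu-miR-30c, mmu-miR-30d and mmu-miR-30e) and 5 star arms (mmu-miR-30a*, mmu-miR-30b*, mmu-miR-30c-1*, mmu-miR-30c-2* and mmu-miR-30e*). The prefix mmu, for mouse, is left out below. All 10 were detected on all 11 arrays, with a detection p-value of 0.01 or less, and all entered the test.

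Liver RNA of 5 wild-type (WT) and 6 LivPGC-1β mice was hybridised to an Illumina Universal MicroRNA BeadChip, 1 mouse per array. Both groups were of the FVB/N strain, 4 months old and fasted overnight, and the LivPGC-1β mice carry in addition a transgene that raises the coactivator PGC-1β in the liver alone. The sources used here describe this line as made earlier and give neither its construct nor the sex of the mice. The array reads no PGC-1β transcript, so it could not check the genotype labels, and nothing in the labels pairs a WT with a LivPGC-1β mouse. All WT mice stand at chip positions 1 to 5 and all LivPGC-1β mice at positions 6 to 11, so position and genotype cannot be fully told apart.

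MicroRNAs are cut from hairpin transcripts, and each hairpin can yield an RNA from either arm. The arm that is usually loaded into the silencing complex is the guide, and the opposite, mostly scarcer arm was named with a star when this chip was designed. Targets are found mainly through the seed, the short stretch near the 5′ end of the microRNA, so RNAs that share a seed are counted as a family. In liver, miR-30c is known for lowering microsomal triglyceride transfer protein and with it the export of lipoproteins, and the family is also known from fibrosis, where it acts against profibrotic signals.

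The set of RefSeq sequences (GRCm38.p6) used here held mature sequences for 7 of the 10 members. It had no entry for miR-30b, miR-30b* and miR-30d, so their seeds were not read. The 7 sequences are shown because they decide which of these members could share targets and which of their probes could cross-react. The seed, bases 2 to 8, is in capitals.
miR-30a: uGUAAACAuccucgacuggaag
miR-30c: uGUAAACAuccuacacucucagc
miR-30e: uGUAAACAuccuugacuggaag
miR-30a*: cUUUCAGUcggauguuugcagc
miR-30e*: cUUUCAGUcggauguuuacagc
miR-30c-1*: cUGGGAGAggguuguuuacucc
miR-30c-2*: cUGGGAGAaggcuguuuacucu
The 7 sequences fall into 3 seed groups. miR-30a, miR-30c and miR-30e share GUAAACA, miR-30a* and miR-30e* share UUUCAGU, and miR-30c-1* and miR-30c-2* share UGGGAGA. The star arms therefore have other seeds than the guide arms of the same hairpins. Among the other probes of the chip, miR-384-5p is the only one found in that set with the seed GUAAACA. It was detected on 1 of 11 arrays, at intensities between 291 and 370, and was not tested.

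Several members are nearly identical. Counted from the 5′ end, with the base of the first-named RNA given first, miR-30e differs from miR-30a by U13C alone and miR-30e* from miR-30a* by A18G alone, while miR-30c-1* differs from miR-30c-2* by G9A, U12C and C22U. How far each probe also binds its near-copy was not tested.

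The genes lie at 3 places in the genome, each with a pair of hairpins. Mir30a (chr1:23272269-23272339) and Mir30c-2 (chr1:23291701-23291784) lie on the plus strand of chromosome 1, 19361 bases apart, outside annotated genes. Mir30b (chr15:68337415-68337510) and Mir30d (chr15:68341208-68341289) lie 3697 bases apart on chromosome 15. Mir30c-1 (chr4:120769534-120769622) and Mir30e (chr4:120772606-120772697) lie on the minus strand of chromosome 4, 2983 bases apart, inside Nfyc (chr4:120757435-120831579), which encodes the gamma subunit of the CCAAT-binding factor NF-Y and is read from the same strand. The annotation used gives no exons, so exonic and intronic placement was not read. The miR-30c guide arm is encoded, with the same sequence, on chromosomes 1 and 4, so its probe cannot tell the sources apart, whereas the star arms miR-30c-1* and miR-30c-2* have different sequences.

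The hairpins of the chromosome 4 pair and their chromosome 1 relatives are shown because their RNAs are compared with each other below. Those of the chromosome 15 pair were not in the sequence set used. Both mature arms are in capitals, the guide first.
Mir30e: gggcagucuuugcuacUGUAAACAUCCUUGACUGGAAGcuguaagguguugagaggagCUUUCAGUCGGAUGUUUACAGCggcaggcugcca
Mir30a: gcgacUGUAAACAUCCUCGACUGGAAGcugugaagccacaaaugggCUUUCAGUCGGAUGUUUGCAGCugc
Mir30c-1: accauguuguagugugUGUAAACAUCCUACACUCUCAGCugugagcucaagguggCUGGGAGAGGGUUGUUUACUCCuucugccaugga
Mir30c-2: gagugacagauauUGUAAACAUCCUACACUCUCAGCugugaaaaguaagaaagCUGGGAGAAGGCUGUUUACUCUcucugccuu

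The arrays differed in brightness. The median unnormalized intensity of an array was 743 to 1036 in WT and 619 to 871 in LivPGC-1β, and 444 to 508 probes were detected per array. After quantile normalization, arrays correlated with each other at r = 0.940 to 0.995 over the tested probes. miR-122, the defining hepatocyte microRNA, was read at 24450 to 29039 on every array, and 0.811% of the tested probes were brighter in WT. In WT 1 the summed normalized intensity of the muscle microRNAs (miR-1, miR-133a, miR-133b and miR-206) was 40284, with 1447 to 2311 in the other WT mice and 1600 to 5968 in LivPGC-1β. WT 1 also had the brightest array median and an erythroid sum of 51651, above the 47030 to 48577 of the other WT mice. In LivPGC-1β 1 the bile duct sum was 44029, with 27051 to 36010 in the other LivPGC-1β mice, and the pancreas sum 2436, with 1264 to 1349 in the others.

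In LivPGC-1β liver, 3 of the 10 members were higher than in WT, and they were the RNAs that come only from the chromosome 4 locus inside Nfyc: miR-30e, miR-30e* and miR-30c-1*. No member was called lower. miR-30b*, from chromosome 15, had an adjusted p of 0.0501, and of 0.0499 with the log2 step taken before normalization (limma). It was called in 4 of 26 alternative settings, among them detection required on all arrays (adjusted p = 0.0429, limma). The division by locus therefore rests on such choices. The test was limma on log2 intensities after quantile normalization, with Benjamini-Hochberg adjustment over the 493 probes tested and a threshold of 0.05. Over all those probes 1.62% were called higher, 8 in number, and 0.406% lower. At an unadjusted p under 0.05, limma had 5 members higher and 0 lower, where 50 of all tested probes were higher and 12 lower. That balance over all probes turned with the scaling, to 6 higher and 80 lower without normalization and 38 higher and 44 lower with cyclic loess. In 5 members (miR-30c-1*, miR-30e*, miR-30b*, miR-30c and miR-30e) the lowest LivPGC-1β value exceeded the highest WT value, where 3.45% of all tested probes had this and 1.22% had the reverse. The study itself picked miR-30c-1 from these same arrays, with the sequence of the star arm, so its place among these counts is not independent evidence. By quantitative PCR, which is not part of the data used here, the study also reported miR-30c-1 higher in LivPGC-1β than in WT and in mice overexpressing PGC-1α.

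**Figure D1:**
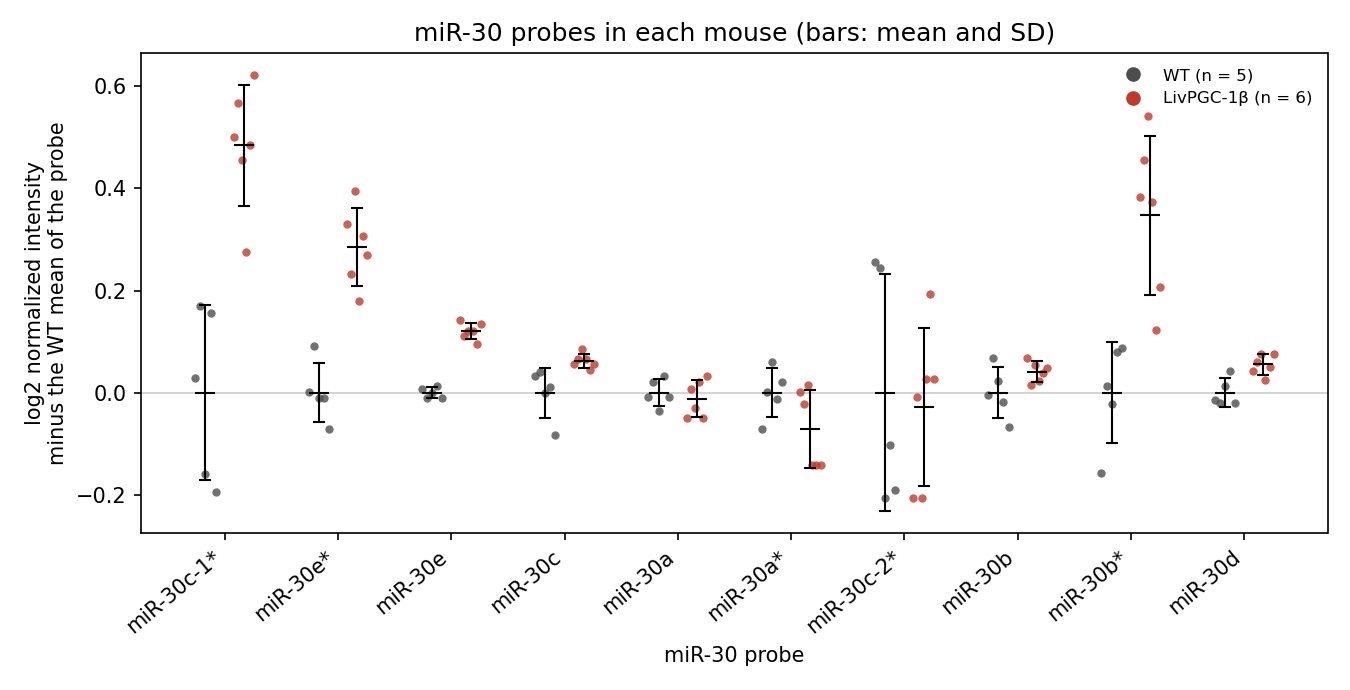
Each point is 1 mouse (WT n = 5, LivPGC-1β n = 6), and the vertical axis gives the log2 normalized intensity of a miR-30 probe minus that probe's WT mean, with the mean and SD as bars. All LivPGC-1β points of miR-30c-1*, miR-30e*, miR-30e, miR-30c and miR-30b* lie above all WT points, while those of miR-30b and miR-30c-2* lie within the WT range.

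miR-30c-1*, the star arm of Mir30c-1, showed the largest difference of the family. Its normalized log2 intensity was 10.24, 10.38, 10.05, 10.37 and 10.02 in WT 1 to 5, and in LivPGC-1β it had a lowest value of 10.49, a median of 10.70 and a highest value of 10.83. The lowest LivPGC-1β mouse lay just above the highest WT mouse, so the groups did not overlap. The difference was 0.48 ± 0.084 on the log2 scale (SE), a 1.40-fold higher intensity, with an adjusted p of 0.0167 (limma) and an exact permutation p of 0.00216 (two-sided). That is the smallest p that the splits of 5 and 6 mice allow. Without normalization the intensities were 1117 to 1511 in WT and 1280 to 1928 in LivPGC-1β and overlapped.

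miR-30e*, the star arm of Mir30e, had the lowest adjusted p of the family. It read 13.47, 13.56, 13.46, 13.46 and 13.40 in WT 1 to 5, against a lowest of 13.65, a median of 13.76 and a highest of 13.87 in LivPGC-1β, again with no overlap. The difference was 0.29 ± 0.044 (log2, SE), or 1.22-fold, with an adjusted p of 0.00747 (limma) and an exact permutation p of 0.00216. Unnormalized intensities were 10551 to 12378 in WT and 11262 to 15685 in LivPGC-1β.

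miR-30e, the guide arm of the same hairpin, differed less, and in WT it varied least of the members after normalization. Its normalized log2 values were 14.16, 14.14, 14.15, 14.17 and 14.14 in WT 1 to 5. In LivPGC-1β the lowest was 14.25, the median 14.27 and the highest 14.30. The groups were separated by more than the SD of either group, which was 0.010 in WT and 0.017 in LivPGC-1β. These SDs are of normalized values, and quantile normalization compresses the brightest probes. Without normalization the intensities were 17681 to 19179 in WT and 17702 to 21539 in LivPGC-1β and overlapped. The difference was 0.12 ± 0.022 (log2, SE), or 1.09-fold, with an adjusted p of 0.0189 (limma) and an exact permutation p of 0.00216.

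These calls depend on how the arrays are brought to 1 scale. Without normalization none of the 10 members passed, with adjusted p-values of 0.280 for miR-30c-1*, 0.280 for miR-30e* and 0.479 for miR-30e (limma), although all 3 differences stayed positive at 0.26, 0.21 and 0.086. With arrays scaled to a common median, miR-30c-1* and miR-30e* passed and miR-30e had an adjusted p of 0.132 (limma). Without WT 1, the mouse with the muscle microRNAs, 1 member passed in place of 3: miR-30e* at a difference of 0.29, while miR-30c-1* and miR-30e both stood at an adjusted p of 0.0517 with differences of 0.49 and 0.12. With chip position as a covariate, which runs almost with genotype, no member passed, and the differences were 0.56, 0.36 and 0.13 with adjusted p-values of 0.572, 0.572 and 0.593 (limma). miR-30e also had an adjusted p of 0.0610 without LivPGC-1β 1, the mouse with the high bile duct and pancreas sums, and 0.0514 without LivPGC-1β 3 (limma).

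miR-30b*, the star arm of Mir30b on chromosome 15, lay at the threshold. Its normalized log2 values were 8.79, 8.96, 8.92, 9.03 and 9.03 in WT 1 to 5 and ran from 9.07 over a median of 9.32 to 9.49 in LivPGC-1β. The groups did not overlap, but LivPGC-1β 5 was only slightly above the highest WT mice. The difference was 0.35 ± 0.079 (log2, SE), or 1.27-fold, with an exact permutation p of 0.00433. Its adjusted p was 0.0501 when intensities were quantile normalized and then log transformed, and 0.0499 when the steps were taken in the other order (limma), so that 3 or 4 members and 10 or 13 probes in all were called depending on the order. Its call is therefore not settled by these arrays. It was also the dimmest member, read at 487 to 552 in WT and 488 to 724 in LivPGC-1β without normalization, where the dimmest detected probe of an array read 328 to 434, and 83.8% of the tested probes were brighter in WT.

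The other guide arms showed small differences. miR-30c, encoded on both chromosome 1 and chromosome 4, read 14.04 to 14.16 in WT and 14.17 to 14.21 in LivPGC-1β, which did not overlap. Its difference was 0.062 ± 0.028 (log2, SE), with an adjusted p of 0.403 (limma) and an exact permutation p of 0.00216. miR-30d read 14.30 to 14.36 in WT and 14.34 to 14.39 in LivPGC-1β, 4 of its 6 LivPGC-1β values above the WT range, a difference of 0.055 ± 0.024 and an adjusted p of 0.376 (limma). miR-30b, its neighbour on chromosome 15, differed by 0.041 ± 0.029 with an adjusted p of 0.573 (limma), and miR-30a on chromosome 1 by -0.012 ± 0.027 with an adjusted p of 0.906 (limma). The values of miR-30b and miR-30a overlapped between the groups, and their signs turned to -0.0062 for miR-30b without normalization and 0.19 for miR-30a with arrays scaled to a common median. Of 14 other tested probes in the intensity range of the guide arms, 0 were called by limma, and their differences ran from -0.094 to 0.079 with a median of -0.0027.

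The 2 star arms of chromosome 1 did not pass the test. miR-30c-2* read 11.47, 11.46, 11.01, 11.11 and 11.03 in WT 1 to 5 and 11.01 to 11.41 in LivPGC-1β, with WT 1 and WT 2 high, and differed by -0.029 ± 0.11 (log2, SE) with an adjusted p of 0.946 (limma). miR-30a* read 12.97 to 13.10 in WT and 12.90 to 13.06 in LivPGC-1β, where 3 mice lay below every WT mouse, and differed by -0.071 ± 0.042 with an adjusted p of 0.495 (limma). The direction of neither is settled, since scaling to the array median gave 0.0088 for miR-30c-2* and 0.047 for miR-30a*.

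**Figure D2:**
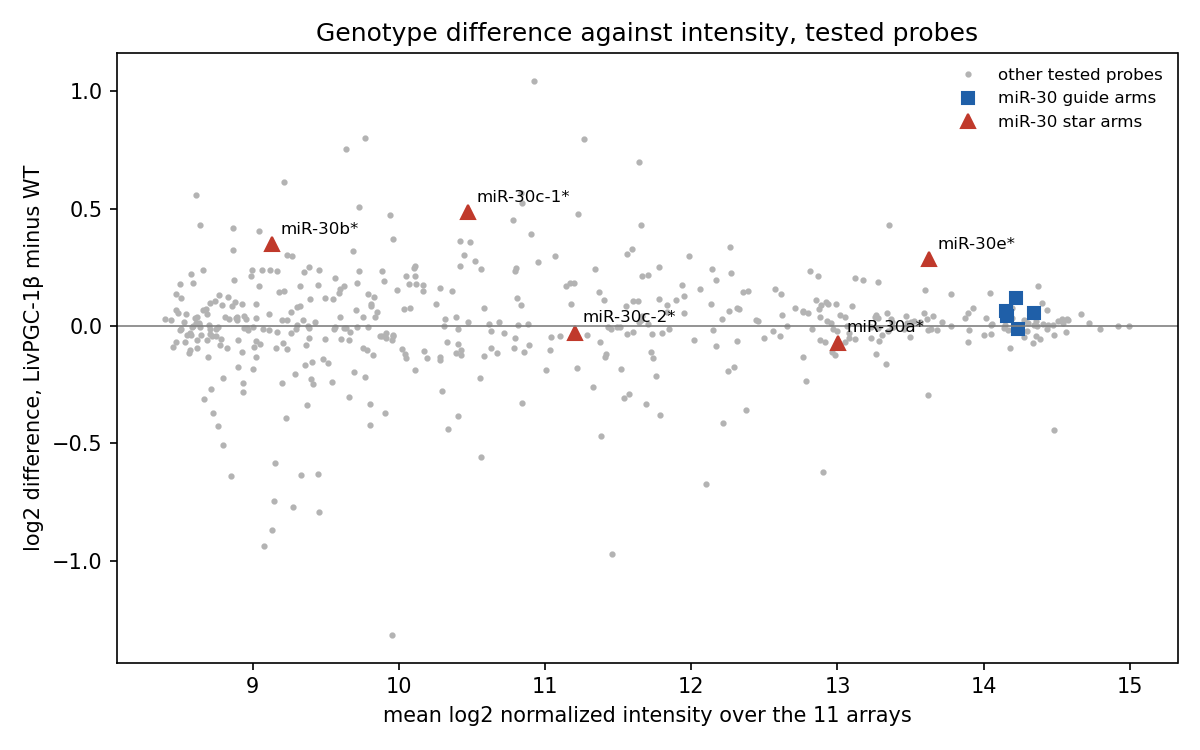
Each point is 1 of the 493 tested probes, with its mean log2 normalized intensity over the 11 arrays on the horizontal axis and its log2 difference (LivPGC-1β minus WT) on the vertical axis. The 5 miR-30 guide arms (squares) crowd at the bright end with differences from -0.012 to 0.12, and the star arms (triangles) spread from -0.071 for miR-30a* to 0.48 for miR-30c-1*.

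The guide arms sat near the top of the chip's range: 5.27% to 9.13% of the tested probes were brighter than each of them in WT, and the brightest probe of an array read 30931 to 35124. The 5 star arms had a median difference of 0.29, which is the value of miR-30e*, and 3 of them were positive. The 5 guide arms had a median of 0.055 with 4 positive, while all tested probes had a median of 0.0087. Among the 79 other tested star arms, limma called 1 higher (let-7i*, by 0.51) and 0 lower, with a median of -0.028.

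Whether members changed by different amounts was tested directly, as the log2 difference between 2 probes of the same array. A brightness factor that both probes share drops out of it. Background was not subtracted, so the difference between a dim and a bright probe can still move with the brightness of the array. Of 9 pairs, 6 passed after Benjamini-Hochberg adjustment over the pairs (exact permutation tests), and in all 6 a chromosome 4 RNA or miR-30b* gained on its partner. The gaining probes are the called members and miR-30b*, so the pairs are independent neither of the single-probe results nor of one another. In miR-30e* against miR-30e both RNAs come from chromosome 4, so that pair does not compare loci. With unnormalized intensities 4 of the 9 pairs passed, each with a chromosome 4 RNA as the gaining partner.

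The clearest separation was between miR-30e* and miR-30a*, which differ by 1 base. Without any normalization, the intensity ratio of miR-30e* to miR-30a* was 1.38, 1.36, 1.23, 1.32 and 1.26 in WT 1 to 5, and in LivPGC-1β it had a lowest value of 1.61, a median of 1.74 and a highest value of 1.87. The groups did not overlap. The ratio was 1.33-fold higher in LivPGC-1β, a log2 change of 0.41, with an exact permutation p of 0.00216 and 0.00974 adjusted over the 9 pairs. After quantile normalization the change was 0.36 ± 0.046 (SE), with the same p-values.

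The guide arms of the same hairpins gave the same separation on a smaller scale. The unnormalized ratio of miR-30e to miR-30a was 0.956, 0.942, 0.925, 0.942 and 0.940 in WT 1 to 5 and ran from 1.00 over a median of 1.03 to 1.07 in LivPGC-1β. Again the groups did not overlap, with a log2 change of 0.14 without normalization and 0.13 ± 0.019 (SE) with it. The exact permutation p was 0.00216 and the adjusted value 0.00974 either way.

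The Mir30c star arms differed likewise. The unnormalized ratio of miR-30c-1* to miR-30c-2* was 0.438, 0.450, 0.534, 0.594 and 0.535 in WT 1 to 5 and ran from 0.592 over a median of 0.733 to 0.825 in LivPGC-1β. LivPGC-1β 4 fell just below WT 4, and the other 5 LivPGC-1β mice lay above all WT mice. The log2 change was 0.49 without normalization (exact permutation p = 0.00649, adjusted 0.0195) and 0.51 ± 0.11 (SE) with it (adjusted 0.0146).

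Star arms also gained on guide arms. After normalization miR-30c-1* gained 0.42 ± 0.079 (log2, SE) on miR-30c, with an adjusted value of 0.0130, and 0.25 without normalization, with an adjusted value of 0.0390 (exact permutation tests). miR-30e* gained 0.16 ± 0.041 on miR-30e (adjusted 0.0156), and 0.13 without normalization, where the adjusted value was 0.0623. miR-30b* gained 0.31 ± 0.085 on miR-30b (adjusted 0.0260), and 0.13 without normalization, where the adjusted value was 0.270. The 2 probes of each of these pairs lie at different brightness, where quantile normalization can move them by different amounts. On chromosome 1 the changes of miR-30a* against miR-30a (-0.060 ± 0.049) and miR-30c-2* against miR-30c (-0.091 ± 0.11) did not pass, nor did that of miR-30d against miR-30b (0.014 ± 0.028), with adjusted values of 0.337, 0.468 and 0.647. With chip position as a covariate, as values with no test, the normalized changes were 0.35 ± 0.096 (SE) for miR-30e* against miR-30a*, 0.17 ± 0.039 for miR-30e against miR-30a and 0.54 ± 0.24 for miR-30c-1* against miR-30c-2*.

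**Figure D3:**
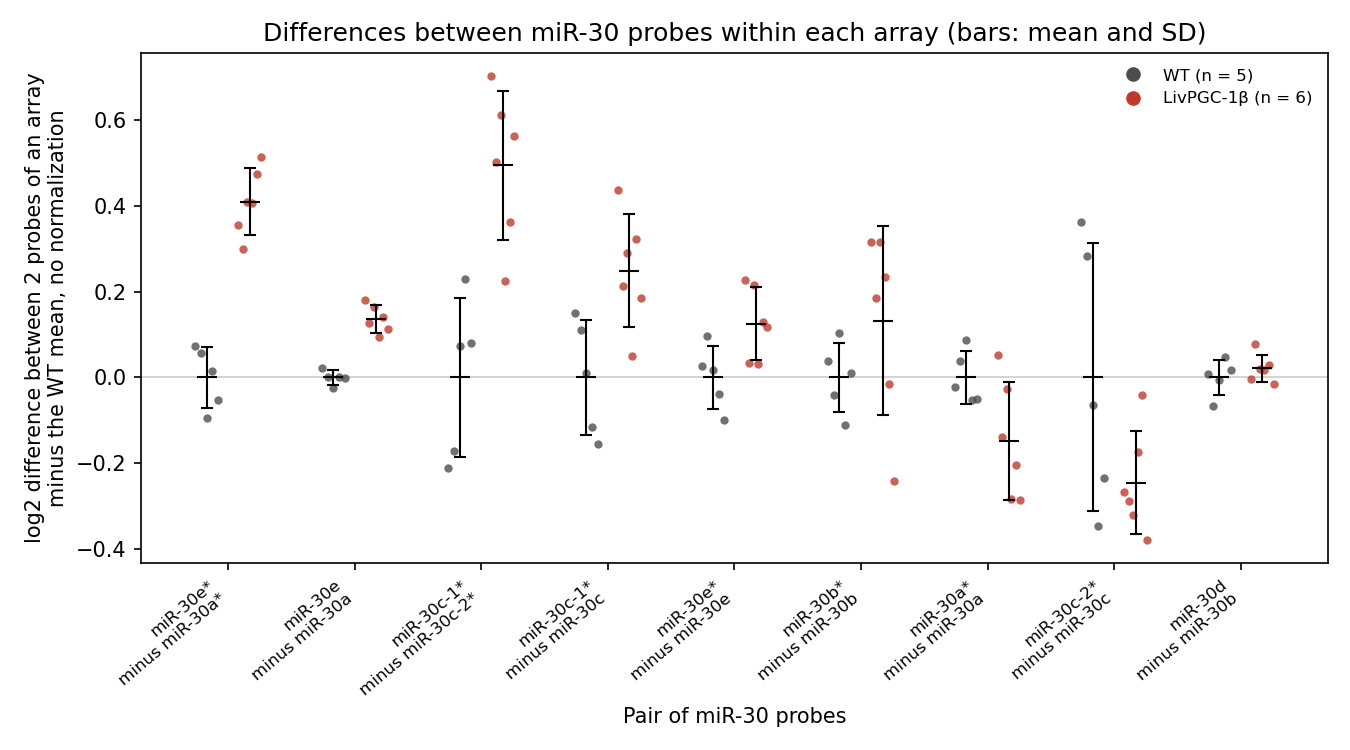
Each point is 1 mouse (WT n = 5, LivPGC-1β n = 6) and gives the log2 difference between 2 miR-30 probes of its array, without normalization and minus the WT mean, with the mean and SD as bars. For miR-30e* minus miR-30a* and for miR-30e minus miR-30a all LivPGC-1β points lie above all WT points, by a mean of 0.41 and 0.14.

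In bulk liver RNA a change in the share of a cell type and a change in RNA per cell cannot be told apart, so markers of the cells present were read from the same arrays. None of the 9 hepatocyte microRNAs was called by limma, and 4 of their differences were positive. Their summed normalized intensity was 138237 to 141329 in WT and 138775 to 143054 in LivPGC-1β. Of 7 leukocyte microRNAs limma called 1 higher, miR-146b by 0.43 ± 0.092, an inducible brake on inflammatory signalling, with an adjusted p of 0.0449. All 7 leukocyte differences were positive, where 264 of all 493 tested probes had a positive difference. The leukocyte sum was 67847 to 75605 in WT and 73777 to 79628 in LivPGC-1β. Of the 5 stellate cell and fibroblast probes, 1 of which reads both miR-199a-3p and miR-199b, 4 were positive with 0 called and a median of 0.053, and their sum was 74576 to 80571 in WT and 77593 to 82695 in LivPGC-1β. Without normalization the median leukocyte sum was 75424 in WT and 75601 in LivPGC-1β. The median stellate cell and fibroblast sum was then 82536 in WT and 80208 in LivPGC-1β, so the shift of these sums depended on the scaling. The part of these cells in the miR-30 differences was not tested. The erythroid, endothelial, bile duct, muscle and pancreas lists had 0 calls among their 3, 2, 6, 3 and 1 tested members. Differences were positive for 5 of the 6 bile duct members, with a median of 0.053, and for 0 of the 3 erythroid and 0 of the 3 muscle members.

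Of 20 microRNAs known for hepatic lipid and lipoprotein control, which include miR-122, miR-33, miR-27b and, from within the gene of PGC-1β, miR-378 and miR-378*, limma called 0 in either direction, with differences from -0.29 to 0.45 and a median of 0.0085. miR-378 differed by -0.016 (adjusted p = 0.892, limma) and miR-378* by -0.066 (adjusted p = 0.619, limma).

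Over the 11 arrays the probes most like miR-30c-1*, by Pearson's r of the normalized log2 values, were miR-484 (r = 0.915), miR-1195 (r = 0.912) and miR-101b (r = 0.886). Those most like miR-30e were miR-1195 (r = 0.898), miR-345-5p (r = 0.891) and miR-677 (r = 0.868), and those most like miR-30e* were miR-146b (r = 0.908), miR-101a (r = 0.889) and let-7i* (r = 0.859). These are descriptions, since all arrays share the genotype split. Of the 9 entries, miR-1195 (0.14), miR-345-5p (0.70), miR-677 (0.75), miR-146b and let-7i* were themselves called higher in LivPGC-1β by limma.

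**Figure D4:**
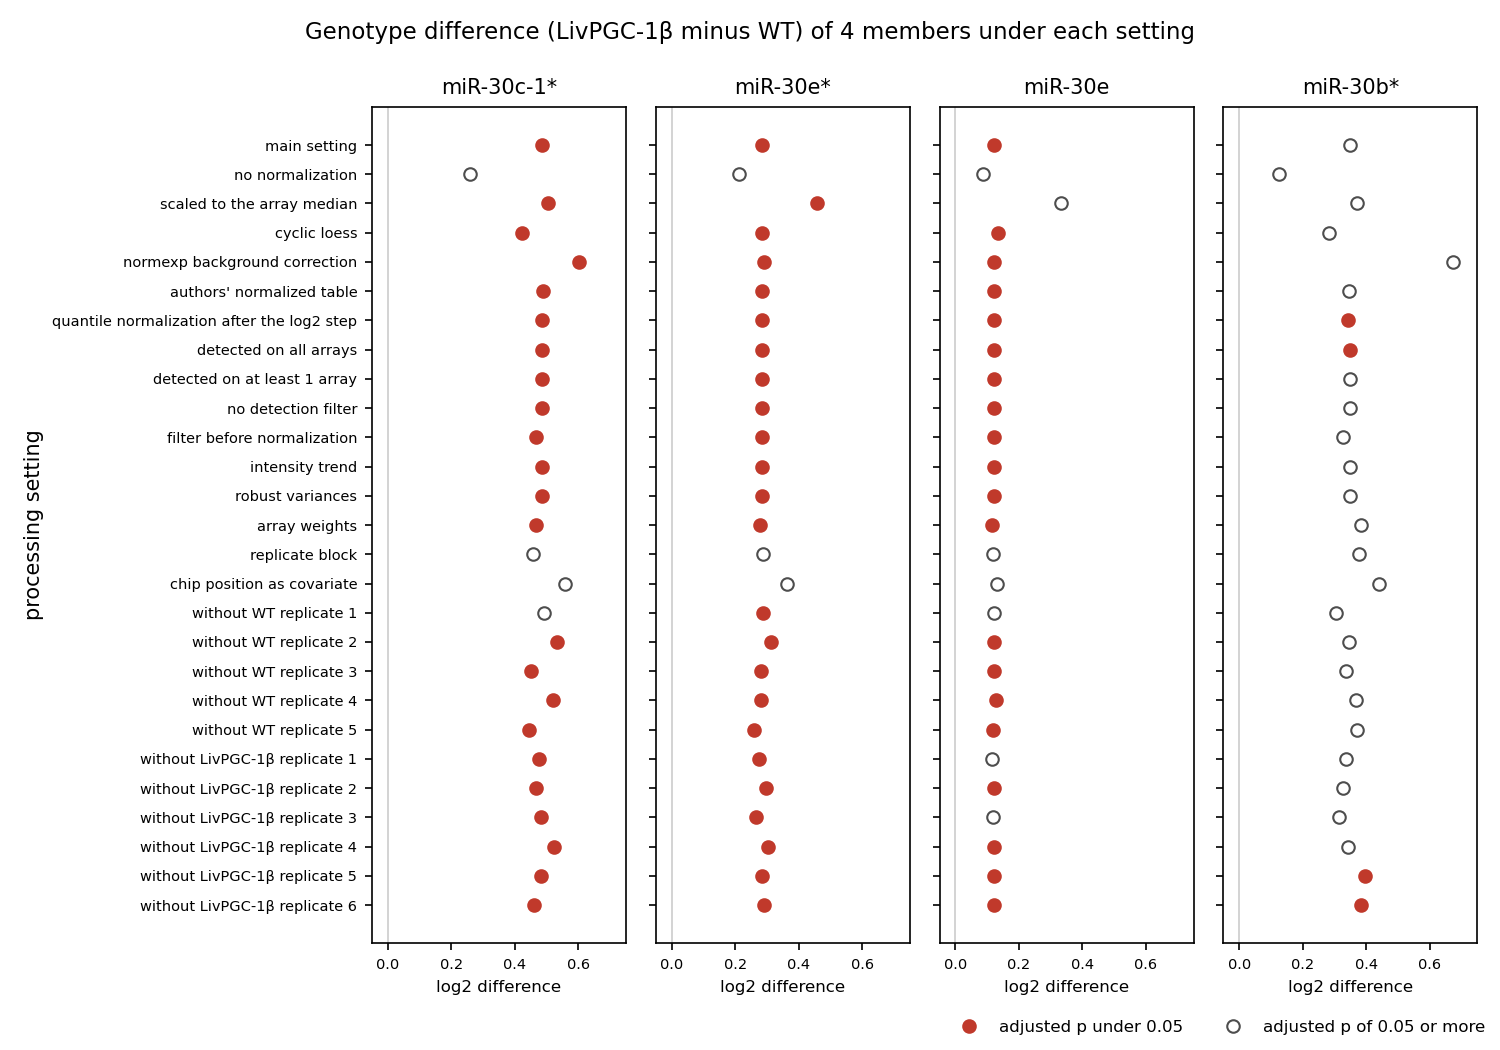
Each row is a processing setting and each panel a member, with the log2 difference (LivPGC-1β minus WT) on the horizontal axis and filled points where limma's adjusted p was under 0.05. miR-30e* stays filled in all rows but no normalization, the replicate block and the chip position, while miR-30b* is open in most, with differences from 0.13 to 0.67 over the alternatives.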

How the data were processed

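Total RNA of 11 livers (5 WT, 6 LivPGC-1β) was analysed. Chips were scanned on an iScan, and the authors deposited Genome Studio's average bead intensity of each probe without subtracting background. The detection p-value of each probe and array, also deposited, compares it with negative controls. A second deposited table holds quantile-normalized intensity values of the authors and was used as an alternative.

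Intensities were quantile normalized over 655 probes (limma 3.58.1, R 4.3.3) and then log2 transformed, and a probe was kept if 5 or more arrays had its detection p at 0.01 or below. The methods state normalization first and the plan did not fix the order. It was settled after results under both orders had been seen, and both are printed where they differ. Genotypes were compared with limma (no covariate) and Benjamini-Hochberg adjustment over 493 probes, single probes and 9 within-array pairs with two-sided exact permutation tests (Python 3.11.15, NumPy 2.4.6). The tests were tried on simulated data. The text names all 10 members, probes with a member's seed, the 3 probes most correlated with each called member, called probes of the lists, and miR-122; miR-33, miR-27b, miR-378, miR-378* and the muscle microRNAs were added. Members and lists were chosen with earlier results of these data known. Group names come from the labels, which do not say whether mice shared a litter. The number of arrays limits the precision.

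Alternatives were other normalizations, detection filters and variance models, array weights, a replicate block, chip position as covariate, and each mouse left out.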

Additional observations from a re-analysis of the deposited data

How the results depend on the processing

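The number of arrays and the brightness of the guide arms limit what can be resolved. Without normalization 0 members were called higher, 0 probes in all, 0 members had groups that do not overlap and 0 single members had an exact p under 0.05 (6 in the analysis reported). Exact tests of single probes were run on the members only. Counts by exact p, here and below, therefore have no share over all tested probes to be read against. Scaling to the array median called 4 probes in all and left 3 members without overlap. Under these settings the median difference of all tested probes was -0.14 and 0.11 on the log2 scale, against 0.0087. Chip position as covariate called 0 members and 0 probes. The numbers shared by WT and LivPGC-1β mice do not pair them, as same-numbered mice deviated with r from -0.135 to 0.0681 and 0 of 5 matched their own number best, and the fit with the replicate block, in which LivPGC-1β 6 has no partner, called 0 members and 1 probe.

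Leaving out each mouse gave 1 to 4 members called higher, the lowest without WT 1, 0 called lower, 5 to 6 without overlap, 6 to 7 with an exact p under 0.05, 6 pairs each time, and 4 to 13 probes in all, with 4 without WT 1, 5 without LivPGC-1β 1 and 6 without LivPGC-1β 3. Taking quantiles after the log2 step, tried after the data had been seen, called 4 members and 13 probes. Requiring detection on all arrays called 4 members and 14 probes. miR-30b* was called in 4 of 26 alternatives, miR-30c-1* in 22, miR-30e* in 23 and miR-30e in 19.

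Signs that turned belonged to differences that had not passed. miR-30b was -0.0062 without normalization. Median scaling gave 0.19 for miR-30a, 0.047 for miR-30a* and 0.0088 for miR-30c-2*. Chip position gave 0.017 for miR-30a* and 0.019 for miR-30c-2*. miR-30c-2* ran from -0.080 to 0.037 as each mouse was left out, positive without WT 1, WT 2, LivPGC-1β 1 or LivPGC-1β 3, and miR-30d against miR-30b from -0.0085, without WT 2, to 0.029. The changes of miR-30e* against miR-30a* (0.33 to 0.41), miR-30e against miR-30a (0.12 to 0.14), miR-30c-1* against miR-30c-2* (0.46 to 0.63) and miR-30c-1* against miR-30c (0.25 to 0.54) passed in all 16 alternatives that were tested. For pairs, chip position and the replicate block, added after the data had been seen, gave values with no test, positive for these 4 pairs. Chip position turned miR-30a* against miR-30a to 0.060 and miR-30d against miR-30b to -0.053. The cause of the changes between settings was not tested.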
